A study of Mus musculus with 3 samples.

Results

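The 43 genes described here encode, apart from the processed pseudogene Snrpert, proteins that build spliceosomal particles or coat nascent mRNA in the nucleus. They were chosen by symbol alone: 11 SR protein genes (Srsf followed by a number), 20 hnRNP genes (Hnrnp) and 12 snRNP protein genes (Snrp), out of 55573 genes listed. The rule left out Snrpn, an imprinted relative of Snrpb with 0.900, 0.751 and 0.558 FPKM in libraries 1, 2 and 3, and 4 processed pseudogenes. Hnrnpa1l2-ps and Hnrnpa1l2-ps2 had at most 3 fragments in any library, and Snrp1c-ps1 and Snrp1c-ps2 were listed at 0 in each. The data came from UMI-RNAseq of NIH3T3, a fibroblast line of mouse embryo origin, grown without any treatment. The 3 libraries belonged to 1 condition, so levels were compared between genes inside each library and no groups of samples were compared. Nothing in the labels or methods states that the libraries were separate cultures, and the SD over them (n = 3 throughout) may be technical. A level is given in FPKM, the number of fragments scaled to gene length in kilobases and to the library total, and these totals ranged from 13959723 to 14423209 fragments.

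Before mRNA leaves the nucleus its introns are removed by the spliceosome. The small nuclear ribonucleoproteins (snRNPs) recognise the splice sites, and each carries a small nuclear RNA inside a ring of Sm proteins. SR proteins carry an RNA-binding domain and a tail rich in arginine and serine, bind exonic sequences and usually favour the inclusion of an exon. The heterogeneous nuclear ribonucleoproteins (hnRNPs) coat nascent transcripts and often act against SR proteins. Many genes of these classes regulate their own mRNA through isoforms that are degraded, and many have left processed copies in the genome.

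Members that resembled an expressed copy elsewhere in the genome are shown first, since the level listed for a member depends on where such fragments were counted. Below, each of the pairs is a stretch of the member's coding sequence and the matching stretch of its copy, both read from GENCODE M21 on GRCm38, with differing bases in capitals. For Snrpf, coding bases 4 to 123 are shown with the processed pseudogene Gm13092 at chr4:150315315-150315434 on the minus strand. Over 255 aligned coding bases, 3 differed, and all of them lie in the stretch.
Snrpf: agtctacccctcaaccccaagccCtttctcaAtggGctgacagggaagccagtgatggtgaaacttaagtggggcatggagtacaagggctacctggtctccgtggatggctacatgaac
Gm13092: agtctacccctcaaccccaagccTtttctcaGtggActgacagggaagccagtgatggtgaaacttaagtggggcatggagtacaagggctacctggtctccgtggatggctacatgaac
For Hnrnpa3, coding bases 214 to 333 are shown with Gm6793, annotated as protein-coding, at chr8:112014742-112014861 on the minus strand. Over 1051 aligned coding bases out of 1137, with 1 gap, 7 differed.
Hnrnpa3: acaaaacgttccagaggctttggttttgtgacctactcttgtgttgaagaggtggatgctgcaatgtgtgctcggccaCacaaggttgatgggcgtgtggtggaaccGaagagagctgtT
Gm6793: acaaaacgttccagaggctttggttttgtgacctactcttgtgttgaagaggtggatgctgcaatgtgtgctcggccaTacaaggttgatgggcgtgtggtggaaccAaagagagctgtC
A further copy of Hnrnpa3, the transcribed processed pseudogene Gm5641 (chr3:54481438-54482925, plus strand), was identical over all 1069 aligned coding bases. Gm8186 matched all 228 coding bases of Snrpg. Of the 1119 coding bases of Hnrnpa1, 960 aligned to Gm10052 with 1 gap, and all of these matched. The copies were chosen after their values were seen, apart from Snrpert, which is a member.

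A mean of at least 1 FPKM was reached by 41 of the 43 genes, compared with 23.2% of all genes listed and 49.2% of protein-coding genes. Srsf12 and Snrpf were the exceptions. Among the 41, 18 had a mean of at least 100 FPKM, against 9.41% of all genes at 1 FPKM or more. By class, this level was reached by 6 SR protein genes, 10 hnRNP genes and 2 snRNP protein genes. Together the 43 genes took 0.955%, 0.941% and 0.946% of the counted fragments in libraries 1, 2 and 3. The members at 1 FPKM or more rested on 62 to 13243 fragments per library.

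The snRNP proteins had the lowest median level of the 3 classes, and the order of SR proteins and hnRNPs depended on how the classes were summarised. The median of the SR proteins was 111, 112 and 112 FPKM in libraries 1, 2 and 3, that of the hnRNPs was 118, 112 and 113 FPKM, and that of the snRNP proteins was 46.9, 47.7 and 47.5 FPKM. The log2 ratio of the snRNP median to the hnRNP median was -1.27 ± 0.05, meaning that the hnRNP median was 2.41-fold higher, and the ratio was below 0 in each of the 3 libraries. Against the SR proteins it was -1.24 ± 0.003, a 2.36-fold difference, also in each library. Between SR proteins and hnRNPs the log2 ratio was -0.03 ± 0.05, less than its spread, with 1 library above 0 and 2 below. In the exact two-sided sign-flip permutation test the p-values were 0.25, 0.25 and 0.5 in this order (adjusted by Benjamini-Hochberg for 3 tests, 0.375, 0.375 and 0.5). With 3 libraries this test cannot go below 0.25, so no ratio here could pass 0.05. The SR to hnRNP ratio turned to 0.10 without the members under 1 FPKM, but was -0.65 with class means in place of medians, -0.63 with the longest isoform of each gene as its length and -0.31 for fragments not divided by length. For fragments not divided by length the snRNP to hnRNP ratio was -2.19 and the snRNP to SR ratio -1.88. Without the members under 1 FPKM, Snrpf among them, these ratios were -1.12 and -1.22. The snRNP class also holds the pseudogene Snrpert (17.2 ± 2.29 FPKM), which no alternative left out.

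**Figure D1:**
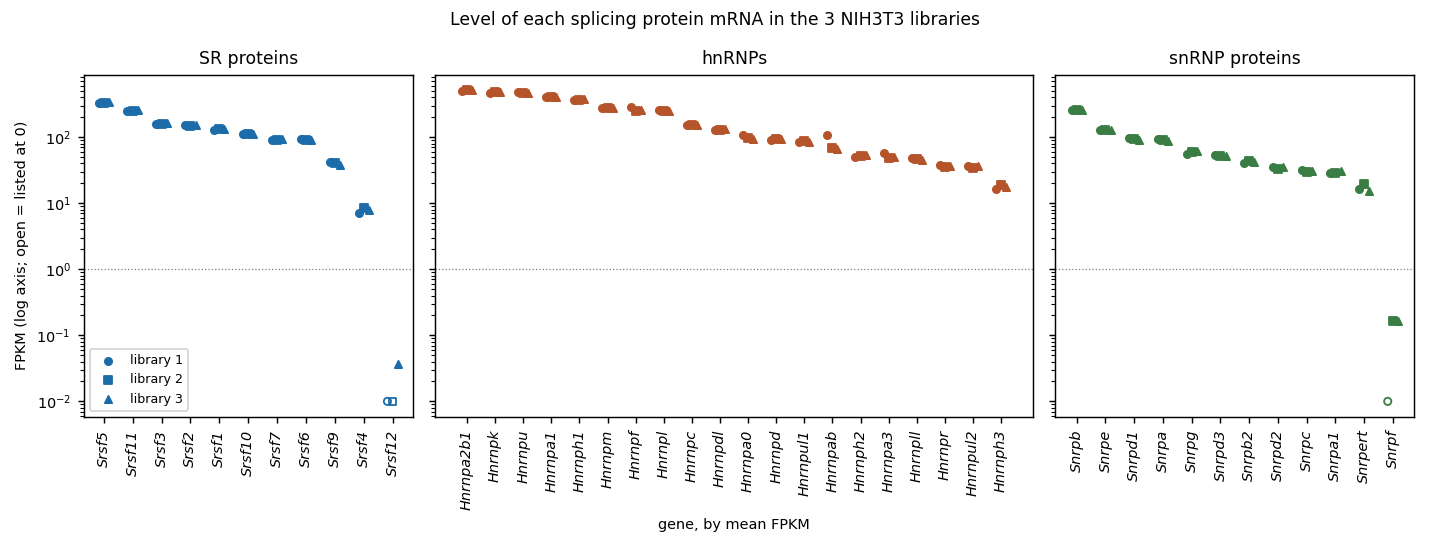
FPKM on a log axis for each gene, ordered by mean within its class, with a marker for each of the 3 NIH3T3 libraries, open markers for values listed at 0 and a dotted line at 1 FPKM. The hnRNPs run from 507 FPKM (Hnrnpa2b1) down to 17.6 FPKM (Hnrnph3) as means, and only Srsf12 and Snrpf lie under the line.

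Of the SR proteins, Srsf5 was the most abundant, with 326, 334 and 337 FPKM in libraries 1, 2 and 3 (332 ± 5.28). It ranked 265 among the 12905 genes with a mean of at least 1 FPKM. Srsf11, which pairs its arginine-serine tail with an RNA-binding domain and contacts U2-associated factors, followed with 247, 247 and 257 FPKM. Srsf3, the smallest of the classical SR proteins and also an adaptor for mRNA export, had 157, 158 and 162 FPKM. Srsf2, which stays mostly in the nucleus and marks nuclear speckles, had 150.1, 149 and 152 FPKM. Of its exonic bases, 25.3% overlap the opposite-strand genes Mettl23 (4.76, 6.10 and 6.75 FPKM) and Mfsd11 (16.5, 15.8 and 15.1 FPKM), and the part of this overlap was not tested. Srsf1, the founding member of the family, which binds purine-rich exonic enhancers, had 130.05, 133 and 135 FPKM. Srsf10, which acts as a splicing repressor when dephosphorylated, had 111, 112 and 112 FPKM. In FPKM as deposited, these 6 genes kept their order in every library without overlap between neighbours, although Srsf3 and Srsf2 were only 1.06-fold apart. The order depended on gene length. With the longest isoforms, Srsf2 (98.1 FPKM) stood above Srsf3 (67.5). Srsf7 (64.1) and Srsf6 (55.7) then stood above Srsf10 (51.5) and Srsf1 (43.2). With the protein-coding isoforms, Srsf2 (115) again stood above Srsf3 (103), and Srsf6 (97.3) and Srsf7 (91.7) above Srsf1 (72.9) and Srsf10 (64.0).

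Srsf7, which has a zinc knuckle that Srsf3 lacks, and Srsf6, a relative of Srsf4 and Srsf5, could not be ordered. Their values were 89.95, 91.5 and 95.03 FPKM for Srsf7 and 92.5, 90.2 and 91.4 FPKM for Srsf6, and the ranges overlap. Srsf9, the short relative of Srsf1, had 42.7, 39.9 and 38.5 FPKM. Srsf4, with the longest arginine-serine tail of its subgroup, had 7.02, 8.53 and 7.97 FPKM, the lowest level of an SR protein above 1 FPKM. In the annotation 43.0% of the exonic bases of Srsf4 overlap the opposite-strand transcript Gm12992, which had at most 0.120 FPKM, and the part of this overlap in the level was not tested. Srsf12, a relative of Srsf10 at chr4:33208991-33233340, was listed at 0 in libraries 1 and 2 and had 0.0371 FPKM, or 1 fragment, in library 3. A floor of 3 fragments corresponds to 0.110 to 0.114 FPKM for this gene, and its transcripts share no 75-nt word (a run of that length on either strand) with another gene, so its level was not detectable at this depth.

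Compared within each library, SR proteins of the same subgroup differed by 1.73-fold to 42.6-fold in FPKM as deposited. Srsf3 exceeded Srsf7 by 0.79 ± 0.02 on the log2 scale (1.73-fold), with coding sequences identical at 65.5% of aligned bases. Srsf1 exceeded Srsf9 by 1.72 ± 0.10 (3.29-fold). The sizes of both ratios depended on the isoforms that set gene length. With the longest isoform, the log2 ratio was 0.075 for Srsf3 to Srsf7 and 0.45 for Srsf1 to Srsf9, and with the protein-coding isoforms it was 0.17 and 0.68. In the subgroup with 2 RNA-binding domains formed by Srsf4, Srsf5 and Srsf6, Srsf5 exceeded Srsf6 by 1.86 ± 0.04 (3.64-fold) and Srsf6 exceeded Srsf4 by 3.55 ± 0.16 (11.7-fold). Srsf5 and Srsf4, identical at 69.5% of aligned coding bases, were the most unequal pair of all those tested, at 5.41 ± 0.12 (42.6-fold). Over the 18 pairs of related genes in the 3 classes, 17 had the same sign in each library and 13 were at least 2-fold apart. The exact sign-flip permutation p was 0.25 for each of these 17 (0.265 after adjustment over the 18 pairs), the smallest that 3 libraries allow. Srsf10 and Srsf12 were not among the tested pairs because Srsf12 was listed at 0 in libraries 1 and 2. With Srsf12 set at a floor of 3 fragments in each library, Srsf10 would be 1003, 986 and 1004 times as high, values that follow from the floor.

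**Figure D2:**
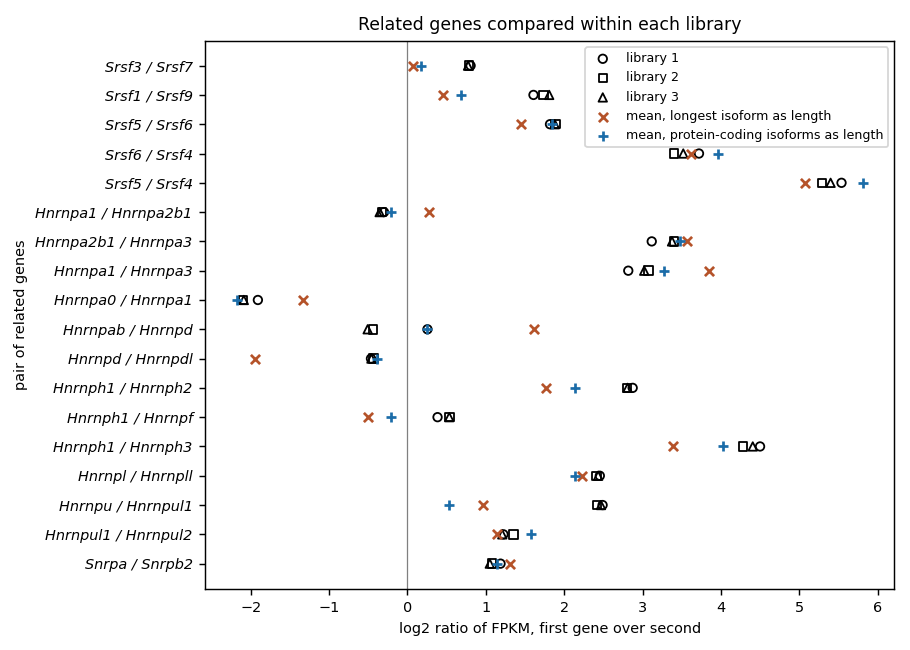
Log2 ratio of FPKM between related genes, 1 row per pair and 1 open marker per library, with a cross for the mean ratio when the longest annotated isoform sets gene length and a plus when the protein-coding isoforms do. In 17 of 18 pairs the library markers fall on the same side of 0, the exception being Hnrnpab and Hnrnpd, and for 3 pairs a length alternative falls on the opposite side.

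The A/B group of hnRNPs, which share a pair of RNA-binding domains and a glycine-rich tail, spanned the class from its top to its lower part. Hnrnpa2b1, known for binding mRNA that is transported or sorted, had 491, 514 and 515 FPKM (507 ± 13.5, rank 161). As deposited this was the highest FPKM of all 43 genes. Hnrnpu had more fragments, 13243, 12446 and 12597 against 10444, 10578 and 10868 for Hnrnpa2b1. Hnrnpa1, the best known antagonist of Srsf1 in splice site choice, had 399, 411 and 403 FPKM. Hnrnpa0, an intronless gene that binds AU-rich mRNA, had 106, 95.7 and 94.7 FPKM, library 1 being the highest. Hnrnpa3 had 56.6, 48.7 and 49.6 FPKM, again with library 1 highest. Hnrnpa1 was lower than Hnrnpa2b1 by a log2 ratio of -0.33 ± 0.03 (1.25-fold) and higher than Hnrnpa3 by 2.97 ± 0.14 (7.86-fold). Hnrnpa0 stood at -2.03 ± 0.11 against Hnrnpa1 (4.10-fold lower). With the longest isoforms, the log2 ratio of Hnrnpa1 to Hnrnpa3 was 3.85 and that of Hnrnpa0 to Hnrnpa1 was -1.33. The order of Hnrnpa1 and Hnrnpa2b1 depended on the gene length used, since the log2 ratio was 0.28 with the longest isoform of each and 0.054 for fragments not divided by length.

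The D group binds AU-rich elements in mRNA and includes Hnrnpd, Hnrnpdl and Hnrnpab. Hnrnpdl had 126, 128 and 130.5 FPKM. Hnrnpd, the AU-rich element factor known for speeding mRNA decay, had 91.5, 94.4 and 94.8 FPKM, a log2 ratio of -0.45 ± 0.02 to Hnrnpdl (1.37-fold lower) that was -1.94 with the longest isoforms. Hnrnpab had 109, 69.6 and 66.7 FPKM (81.8 ± 23.8), so that library 1 stood well above the other libraries. Its log2 ratio to Hnrnpd was 0.25, -0.44 and -0.51 in libraries 1, 2 and 3, with a mean of -0.23 ± 0.42 (exact sign-flip permutation p = 0.5, adjusted 0.5), and this was the only pair without a common sign.

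Of the H/F group, which binds runs of guanine, Hnrnph1 was the highest, with 367, 364 and 375 FPKM. Hnrnpf had 281, 251 and 259 FPKM, again with library 1 highest. Hnrnph2, the X-linked relative of Hnrnph1, had 50.1, 52.1 and 53.6 FPKM, and Hnrnph3, the shortest of the group, had 16.2, 18.7 and 17.7 FPKM, the lowest level in the hnRNP class. Hnrnph1 exceeded Hnrnph2 by 2.83 ± 0.04 on the log2 scale (7.11-fold), although their coding sequences were identical at 85.2% of aligned bases, the highest identity among the pairs. With other gene lengths this ratio was 1.76 to 2.14. Hnrnph1 exceeded Hnrnph3 by 4.395 ± 0.11 (21.1-fold, and 3.39 on the log2 scale with the longest isoforms) and Hnrnpf by 0.48 ± 0.09 (1.40-fold). With the longest isoform as gene length the last ratio turned to -0.50, and with the protein-coding isoforms to -0.20. For Hnrnpf, 55.9% of its 75-nt words also occur in other genes, the largest number in the processed pseudogene Gm6430, which had at most 0.168 FPKM. In addition, 26.5% of its exonic bases overlap opposite-strand genes, and the part of either in the level was not tested.

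Among the other hnRNPs, Hnrnpk, which binds cytosine-rich RNA and DNA through KH domains, had 468, 477 and 488 FPKM. Hnrnpu, a large scaffold protein of the nuclear matrix, had 481, 468 and 462 FPKM, and the ranges of these 2 genes overlap. Hnrnpm, first known for binding guanine- and uracil-rich RNA, had 278, 272 and 272 FPKM. Hnrnpl, which binds CA repeats, had 261, 252 and 247 FPKM, and exceeded its relative Hnrnpll, a regulator of alternative splicing in lymphocytes with 47.7, 47.4 and 45.7 FPKM, by 2.43 ± 0.02 on the log2 scale (5.40-fold), or by 1.43 for fragments not divided by length. Hnrnpc, which forms tetramers on long nuclear transcripts, had 152, 150.2 and 154 FPKM. Hnrnpul1 had 85.7, 87.5 and 83.4 FPKM and Hnrnpul2 had 36.7, 34.3 and 36.0 FPKM. Both are related to Hnrnpu, which exceeded Hnrnpul1 by 2.46 ± 0.04 (5.50-fold), and Hnrnpul1 in turn exceeded Hnrnpul2 by 1.26 ± 0.08 (2.40-fold). The log2 ratio of Hnrnpu to Hnrnpul1 was 0.97 (1.95-fold) with the longest isoforms and 0.53 (1.44-fold) with the protein-coding isoforms. Hnrnpr, a relative of Syncrip, had 37.5, 35.3 and 36.9 FPKM and could not be ordered against Hnrnpul2. In this class 7 of the 19 neighbours in the order had overlapping ranges, compared with 1 of 10 in the SR class and 2 of 11 in the snRNP class.

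The 7 Sm proteins stand in the ring at equal numbers, but their mRNA levels were unequal. Snrpb, whose gene makes the SmB forms, was the highest with 258, 258 and 256 FPKM. Snrpe had 126, 129 and 130.2 FPKM and Snrpd1 had 96.3, 93.6 and 91.0 FPKM. Snrpg, which sits beside Snrpe in the ring, had 55.4, 58.6 and 62.7 FPKM. Snrpd3, the partner of SmB, had 53.1, 51.9 and 52.5 FPKM, and Snrpd2, the partner of Snrpd1, had 35.9, 32.9 and 35.3 FPKM. Between these 6 genes the highest was 7.19, 7.85 and 7.25 times the lowest in libraries 1, 2 and 3. In FPKM as deposited, no neighbours among them had overlapping ranges, but the lower part of the order depended on gene length. With the longest isoforms, Snrpg (35.4 FPKM) and Snrpd2 (32.4) stood above Snrpd3 (23.9). With the protein-coding isoforms, Snrpd3 (41.7) stood above Snrpg (35.4).

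Snrpf (ENSMUSG00000020018, chr10:93583029-93589706, minus strand), the remaining ring subunit, was listed at 0 in library 1 and had 0.166 and 0.162 FPKM in libraries 2 and 3. These values rest on 0, 2 and 2 fragments, with an upper exact Poisson 95% limit of 0.297, 0.601 and 0.586 FPKM that covers counting error only. With Snrpf set at a floor of 3 fragments in each library, the ring spanned a ratio of 1069, 1034 and 1050, a value that follows from the floor and depth. In the annotation 735 of the 861 exonic bases of Snrpf (85.4%) overlap the opposite-strand genes Ccdc38 and 4933408J17Rik, which had at most 0.512 and 0.0376 FPKM. Its copy Gm13092 was listed with 70.4, 82.7 and 69.4 FPKM, a level between those of Snrpd1 and Snrpg when averaged. The part of the overlap and of the copy in the low value was not tested. With the annotated pseudogene copies added to each ring member, the lowest was Snrpd2, Snrpf stood at 74.2 ± 7.44 FPKM, and the ring spanned a ratio of 7.39 ± 0.40.

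Members specific to particular snRNPs were lower than Snrpb. In the U1 particle, which recognises the 5′ splice site, Snrpa had 92.8, 92.0 and 88.2 FPKM and Snrpc had 31.9, 29.3 and 31.0 FPKM. In the U2 particle, which binds the branch point, Snrpb2 had 40.7, 43.5 and 42.6 FPKM and Snrpa1 had 28.7, 28.5 and 31.1 FPKM. Snrpa and Snrpb2 descend from a common ancestor and are identical at 71.3% of aligned coding bases, and Snrpa was higher by 1.11 ± 0.07 on the log2 scale (2.15-fold). The ranges of Snrpc and Snrpa1 overlap. Snrpert, a member by its symbol that the annotation classes as a processed pseudogene and a copy of Snrpe, had 16.2, 19.8 and 15.5 FPKM from 65, 77 and 62 fragments, so that it added 6.98%, 8.24% and 6.53% to the fragments of Snrpe plus its copy.

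For 2 members, most fragments of the member and its copies were listed under the copies. Of the summed fragments of Snrpf and Gm13092, Gm13092 held all fragments in library 1 and 99.3% and 99.2% in libraries 2 and 3. For Hnrnpa3 (chr2:75659261-75669407), Gm6793 had 153, 166 and 163 FPKM, above the member itself in each library. Gm5641 had 24.4, 67.3 and 81.2 FPKM, a 3.33-fold range in which library 1 was the lowest, whereas Hnrnpa3 was highest in library 1. Gm11847, another copy of Hnrnpa3, had 31.2, 31.8 and 33.3 FPKM. In these sums a copy is any annotated pseudogene that shares a 75-nt word with the member, or Gm6793. Some share few words and may not be true copies, such as Olfr1285, which shares 3 words with Hnrnpd. The 37 annotated copies of Hnrnpa3 held 80.9%, 85.7% and 85.9% of the fragments of the member and its copies, in fragments not divided by length. The highest library was 1.16 times the lowest for Hnrnpa3 and 1.19 times for this sum. With only Gm6793 added it was 1.02 times, and with only Gm5641 added 1.47 times. For the other members with annotated copies, these held between 0% and 11.9% in every library, among them 10.1%, 9.76% and 11.9% for Snrpg with Gm8186 (17.1, 17.4 and 23.3 FPKM) and 5.51%, 5.24% and 5.59% for Hnrnpa1 with its 13 copies. Of the 43 genes, 20 share 75-nt words with at least 1 pseudogene and 11 share none with any gene. Snrpe and Snrpert are the only members that share words with each other.

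**Figure D3:**
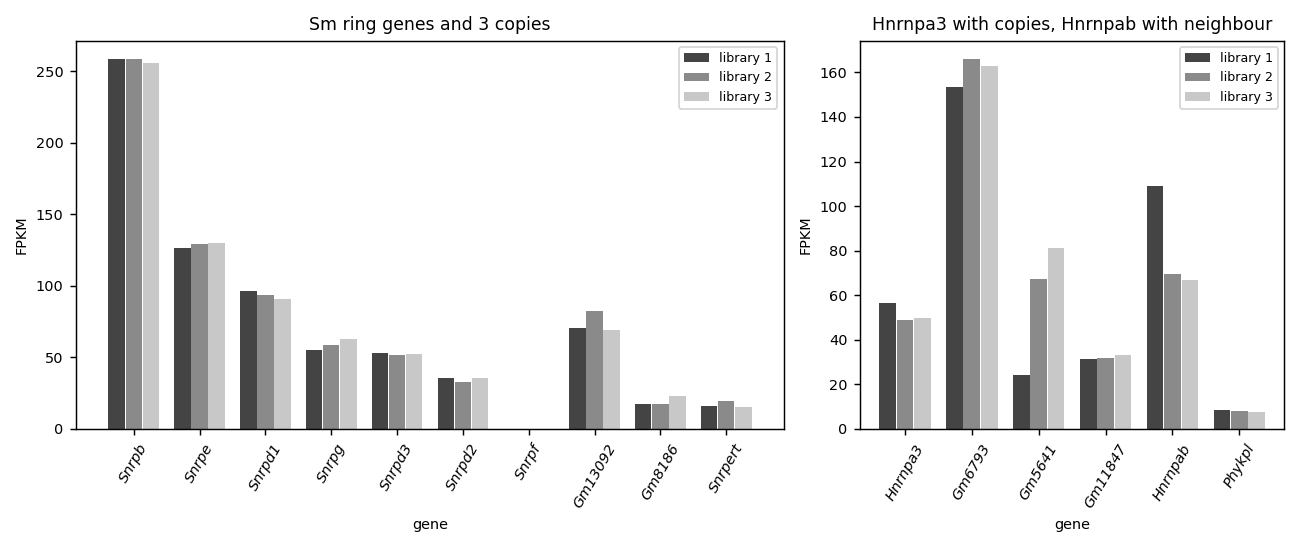
FPKM (linear axis from 0) in each of the 3 libraries, as bars, for the Sm ring genes with the copies of Snrpf, Snrpg and Snrpe on the left, and for Hnrnpa3 with 3 copies and Hnrnpab with its opposite-strand neighbour Phykpl on the right. The bars of Snrpf are too low to see beside 70.4, 82.7 and 69.4 FPKM for Gm13092, and in library 1 Gm5641 is at its lowest and Hnrnpa3 at its highest.

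Replicate libraries differed little for most members. Among the 40 members with a mean of at least 10 FPKM, the highest library was at least 1.2 times the lowest for 2, Hnrnpab (1.64-fold) and Snrpert (1.27-fold), while 4.85% of all genes at this level differed as much, so the count is near the background. The median of this ratio was 1.05 for the members and 1.06 for all genes at 10 FPKM or more. Recovered fragments gave a finer measure, the variance between libraries over that of counting error. It was past its 95% limit of 2.996 for 8 of the 40 members, all of them hnRNPs, compared with 11.5% of all genes. No test was made of this difference, and genes with more fragments have smaller counting errors.

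The 8 hnRNPs were Hnrnpab (191 times the counting variance), Hnrnpf (19.4), Hnrnpa0 (15.8), Hnrnpa3 (8.87), Hnrnpa2b1 (7.66), Hnrnpu (6.02), Hnrnpl (4.61) and Hnrnpk (3.17). Library 1 was the highest for 6 of them and the lowest for Hnrnpa2b1 and Hnrnpk. Without library 1, the ratio of the 2 remaining libraries was 1.00 to 1.04 in these genes. For Hnrnpk it was smaller without library 3 (1.018) than without library 1 (1.022). The 8 genes were picked for their spread, and how often library 1 stood apart among all genes was not counted. For Hnrnpab (ENSMUSG00000020358, chr11:51600100-51606847, minus strand), 3056, 1885 and 1851 fragments were counted in libraries 1, 2 and 3. In the annotation 809 of its 2782 exonic bases (29.1%) overlap the opposite-strand gene Phykpl. Phykpl itself had 8.44, 7.96 and 7.76 FPKM, a 1.09-fold range. The part of this overlap in the spread was not tested.

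**Figure D4:**
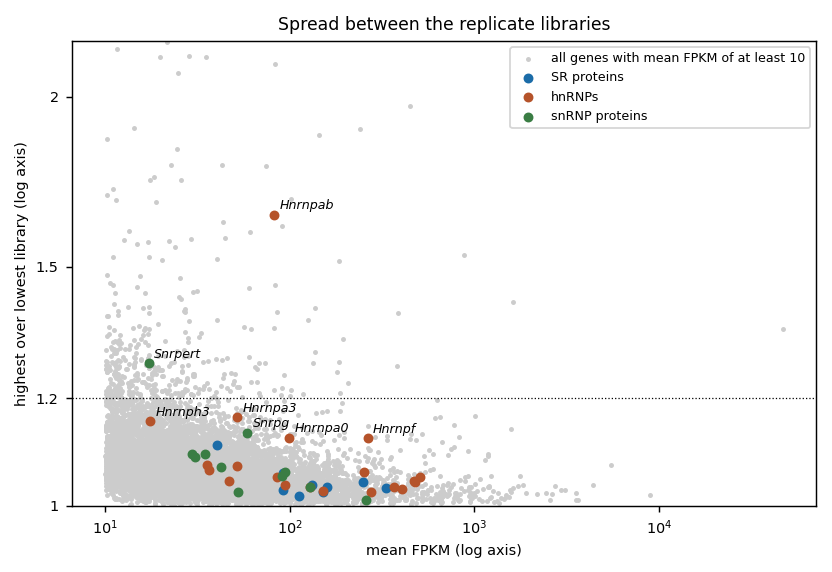
Ratio of the highest to the lowest library against mean FPKM, both on log axes, for all genes with a mean of at least 10 FPKM (grey) and for the members by class, with a dotted line at 1.2. Hnrnpab and Snrpert lie above the line, and 28 genes lie beyond the upper end of the axis.

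Levels between genes depend on the gene length behind the FPKM. The deposited values divide by the mean length of a gene's annotated isoforms, and the longest isoform was between 1.00 and 6.15 times that length for members at 1 FPKM or more. With the longest isoform instead, Hnrnpu, whose longest isoform of 7640 nt is 4.01 times the length used, moved from 470.2 to 117 FPKM. Hnrnpr moved from 36.6 to 5.94 FPKM and Hnrnpd from 93.6 to 21.3 FPKM. Hnrnpa0 and Snrpert have 1 isoform and did not move. Under the longest isoform, the protein-coding isoforms and fragments not divided by length, all without added copies, 10 of the 18 pairs stayed at least 2-fold apart in the same direction. For 12 of the 18 pairs, at least 1 of these lengths moved the ratio by over 1.5 times.

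**Figure D5:**
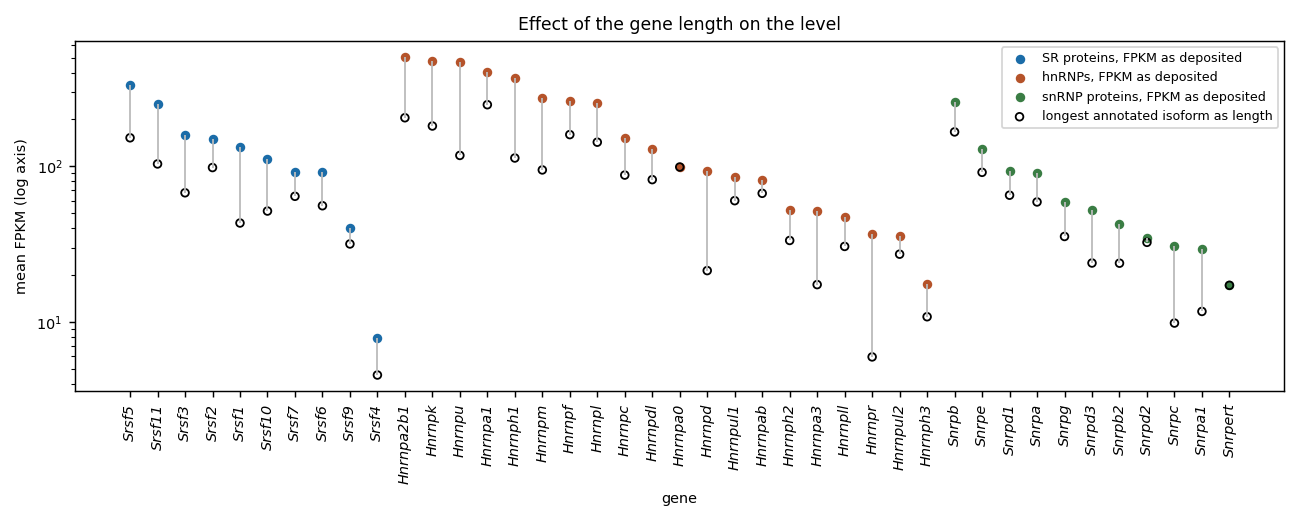
Mean FPKM on a log axis as deposited (filled) and recomputed with the longest annotated isoform as gene length (open) for the 41 genes at 1 FPKM or more. The drop is widest for Hnrnpr, from 36.6 to 5.94 FPKM, and Hnrnpa0 and Snrpert show none.

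Annotated isoforms of these genes include many that are not expected to make protein. A nonsense-mediated decay isoform, which carries an early stop codon, is annotated for 9 of 11 SR protein genes, 10 of 20 hnRNP genes and 4 of 12 snRNP protein genes. A retained-intron isoform is annotated for 8, 14 and 9 genes. Among the 40 protein-coding members at 1 FPKM or more the median number of isoforms was 7, and 57.5% had a decay isoform and 77.5% a retained-intron isoform. For all 10813 protein-coding genes at this level the values were 5, 30.1% and 61.4%. FPKM per gene cannot tell which isoform the fragments came from. Hnrnpk had the most isoforms, 34, and Srsf11 had the most in the SR class, 19, of which 11 retain an intron.

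Other genes of the splicing pathway, taken from lists chosen by function, were mostly expressed as well. For comparison, 49.2% of all protein-coding genes reached 1 FPKM, and 9.41% of all genes at 1 FPKM or more reached 100 FPKM. Of 15 hnRNP proteins known by other symbols, all reached 1 FPKM and 8 reached 100 FPKM, and the lowest was Rbmx with 7.27, 5.84 and 6.84 FPKM. Of 13 SR-related proteins and modifiers of SR proteins, 12 reached 1 FPKM. The highest was Srrm2, a scaffold of nuclear speckles with 339, 357 and 346 FPKM, and the lowest was Srpk3, a muscle kinase of SR proteins listed at 0 in libraries 1 and 3 and at 0.0502 FPKM in library 2. All 21 snRNP-specific and U2-associated factors reached 1 FPKM, from Snrnp70 of the U1 particle (248, 259 and 248 FPKM) to Snrnp35 of the minor spliceosome (8.03, 7.99 and 8.78 FPKM). The 8 LSm genes, whose products form the ring on U6 RNA and the ring for mRNA decay, had a median of 25.7 FPKM, from Lsm4 (97.9, 89.1 and 94.0 FPKM) to Lsm3 (10.0, 11.2 and 10.6 FPKM). Of 14 genes for assembly of the Sm ring, 13 reached 1 FPKM, from Strap (188, 179 and 174 FPKM) to Gemin4, which had 0.0735, 0.152 and 0.111 FPKM. Of 12 splicing regulators typical of neurons or epithelia, 5 reached 1 FPKM, which is near the share of all protein-coding genes. Nova1 was the highest at 8.60, 8.95 and 7.91 FPKM, and Rbfox1 and Esrp1 were listed at 0 in each library.

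Marker genes were checked because the extraction text in the labels mentions retina although the cell line given is NIH3T3. Of 10 fibroblast markers, all reached 1 FPKM, from Fn1 (4278, 4421 and 4433 FPKM) to S100a4 (3.16, 2.75 and 3.02 FPKM). None of 10 retina markers did. Their summed level was 0.926 to 1.46 FPKM, with Rcvrn highest at 0.267, 0.620 and 0.202 FPKM and Nrl listed at 0 in each library. Of 5 neuron markers none reached 1 FPKM, with Slc17a7 highest at 0.617, 0.499 and 0.514 FPKM, Gad1 lowest, listed at 0 in libraries 1 and 3, and a summed level of 0.618 to 1.04 FPKM. Of 5 epithelial markers only Krt14 did (8.70, 8.33 and 8.13 FPKM), with Epcam and Krt5 listed at 0 and a summed level of 8.65 to 9.16 FPKM. Of 5 leukocyte markers Cd14 (17.8, 17.98 and 17.5 FPKM) and Lyz2 (2.69, 2.12 and 2.81 FPKM) did, while Cd3e was listed at 0 and Ptprc had at most 0.0493 FPKM. The summed leukocyte level was 20.2 to 20.5 FPKM.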

How the data were processed

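UMI-RNAseq was analysed in 3 libraries of NIH3T3 cells. According to the methods, fragments were sequenced as 150 nt pairs, and reads sharing both a UMI and a mapping position were collapsed. The submitters' processing notes name UMI-tools 1.0.0, HISAT2 2.0.4 and HTSeq 0.6.1. The genome build, annotation and strand setting are not given in the sources used here. The authors deposited FPKM per gene and library, without pooling replicates. Both deposited tables hold the same values for 55573 genes, and 0 columns of values were left unused.

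All values were used as deposited, with no filter or pseudocount in the main results. FPKM is not a count, so no count model was fitted. Library totals were recovered from genes with 1 isoform, as the most frequent value that turns FPKM into whole fragments. With the mean isoform length of GENCODE M21 (GRCm38, 55480 gene IDs found), 25976 of 26178 genes with fragments came out whole within 0.05. Copies and overlaps were found as 75-nt words shared on either strand and as shared exonic bases. Ratios within a library were tested with exact two-sided sign-flip permutation tests, with Benjamini-Hochberg adjustment. The spread was described by the ratio of libraries and by chi-square per degree of freedom against counting error. Intervals are exact Poisson limits and, like floors, cover counting error only. Python 3.11.15, numpy 2.4.6, pandas 2.3.3, scipy 1.17.1, Biopython 1.88 and matplotlib 3.10.9 were used. On simulated libraries of 55278 genes with a 1.5-fold change in 1 library, 100% of 200 changed genes were called at a ratio of 1.2. Of unchanged genes at 10 FPKM or more, 2.59% were called. The changed genes were drawn from genes with many fragments, and the simulated libraries carried counting error only. The result therefore does not cover members with few fragments, such as Snrpert.

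The members follow a rule on symbols and the lists were chosen by function, both set with earlier results of these data known. Named genes are all members, the highest and lowest gene of each pathway list, the gene sharing most words with a member that shares at least 50% of its words, and the genes the symbol rule left out. A gene that this rule names and some of the copies' sequences are not reported here. Other copies and overlapping genes, and further list members named, were picked with their values in view. Alternatives comprised other limits on FPKM, TPM and median-of-ratios scaling, other gene lengths, class means, a pseudocount of 1, added copies, a ratio limit of 1.5, counting error and leaving out each replicate.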

Additional observations from a re-analysis of the deposited data

How the results depend on the processing

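Of 170 values recomputed under an alternative, 8 reversed, 9 others (of the ring ratio or the count of uneven members) moved beyond the replicate spread or by over 1.5 times, and 153 did neither. For ratios of classes or pairs the 153 include every value that kept its sign, whatever its size: 12 of the 18 pairs moved by over 1.5 times under another gene length, and 3 pairs reversed. Hnrnpa1 to Hnrnpa2b1 turned to 0.28 with the longest isoform and 0.054 for fragments not divided by length, Hnrnpab to Hnrnpd to 1.61, to 0.091 and, with the protein-coding isoforms, to 0.25, and Hnrnph1 to Hnrnpf to -0.50 with the longest and -0.20 with the protein-coding isoforms. The class ratio of SR proteins to hnRNPs turned to 0.10 among members of at least 1 FPKM, since Srsf12 then leaves the median, and was -0.65 by class means, -0.63 with the longest isoform and -0.31 without division by length. The snRNP to hnRNP ratio ranged from -2.19 (no division by length) to -1.12 (members of at least 1 FPKM), and snRNP to SR from -1.88 (no division by length) to -0.84 (class means). The ring ratio was 678.8 with the longest isoform, 1000.3 with the protein-coding isoforms and 1349 for fragments not divided by length. It was 7.39 with copies added as FPKM, each on its own length, but without division by length Snrpf plus its copy was below Snrpd2. An alternative chosen after seeing the data, leaving out Snrpf, gave 7.43. Members with a ratio of at least 1.2 numbered 2, 3 with TPM scaling and 3 with a mean of at least 1 FPKM, 1 at a limit of 1.5, 8 by counting error, and 1 to 2 when a library was left out: only Snrpert remained without library 1 and only Hnrnpab without library 2. The count of members at 1 FPKM or more stayed at 41 when any library was left out. No paired analysis was possible because the libraries belong to 1 condition. The levels of Srsf12 and Snrpf rest on at most 2 fragments in a library, and 3 libraries cannot give a p below 0.25.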
